A study of Mus musculus with 79 samples.

Results

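The comparison is between T+ cells of T knockout (T KO) embryos and T+ cells of wild-type (WT) embryos at Theiler stage 13 (TS13), with 1 RNA-seq library for each genotype. FPKM is the number of fragments counted per kilobase of a gene's transcript, scaled to M mapped fragments. Genes entered the comparison when they had at least 5 FPKM in 1 of the 2 libraries. Gene models known only by a number, small RNAs, mitochondrial genes, joined symbols and pseudogenes were set aside, which left 8167 of 23983 gene symbols. The T KO embryos are labelled T2J/2J with strain C57BL/6J, and the WT embryos are labelled with strain C57BL/6N, so genotype and strain label cannot be told apart. Embryos of both genotypes were made by tetraploid complementation, so that the tissues of the embryo itself descend from cultured embryonic stem cells. Their caudal ends were pooled, dissociated and sorted to about 20000 T+ cells per library. How T+ cells were recognised in embryos that lack T, and from how many stem cell lines each genotype came, is not given in the labels. With 1 library per genotype there is no replicate error and no test, and every difference below describes these libraries.

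T, also called Brachyury, is a T-box transcription factor of the primitive streak, notochord and tail bud. In the tail bud, neuro-mesodermal progenitors carry both T and Sox2 and can give rise to spinal cord or to paraxial mesoderm, the tissue that segments into somites. Wnt and FGF signals maintain these progenitors and T takes part in that loop, while Tbx6 and Msgn1 drive entry into presomitic mesoderm and Sox2 is held to favour neural fate.

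T itself had 3.32 FPKM in T KO cells, against 76.4 FPKM in WT cells, and at Theiler stage 12 (TS12) it had 4.61 FPKM in T KO cells, against 69.8 FPKM in WT cells. Sox2 had 43.5 FPKM in T KO cells and 11.99 FPKM in WT cells at TS13. The T-box factor Tbx6 had 1.70 FPKM in T KO cells and 23.2 FPKM in WT cells. The low T values go with the genotype labels at both stages. Sox2 was higher and Tbx6 lower in T KO cells.

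Differences are T KO minus WT on the log2(FPKM + 1) scale, which understates the change of low genes, and a gene is counted when the difference is at least 1 in size, called 2-fold below. By this measure 97 genes (1.19% of those compared) reached 2-fold on the higher side in T KO cells and 119 genes (1.46%) on the lower side. The median over all 8167 genes was -0.04. At 4-fold, 16 genes were higher and 30 lower, and 8 of the higher and 21 of the lower genes had under 1 FPKM in the library where they were lower. The genes just inside the line were Mt2 (1.01), Wwox (1.01) and 4933416M07Rik (1.02) on the higher side, with Tmem254b (0.997), Nrp2 (0.996) and Cyb561d2 (0.989) just outside. Supt4a (-1.01), Ndufaf6 (-1.02) and Hoxaas3 (-1.03) lay just inside on the lower side, with Slc38a4 (-0.995) and Mmd (-0.995) just outside. T was left out of every count. List medians below cover the members that reached 5 FPKM in 1 of the libraries, and a member that did so only where it is high had to differ, so the medians and counts describe those members and not the whole list.

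**Figure D1:**
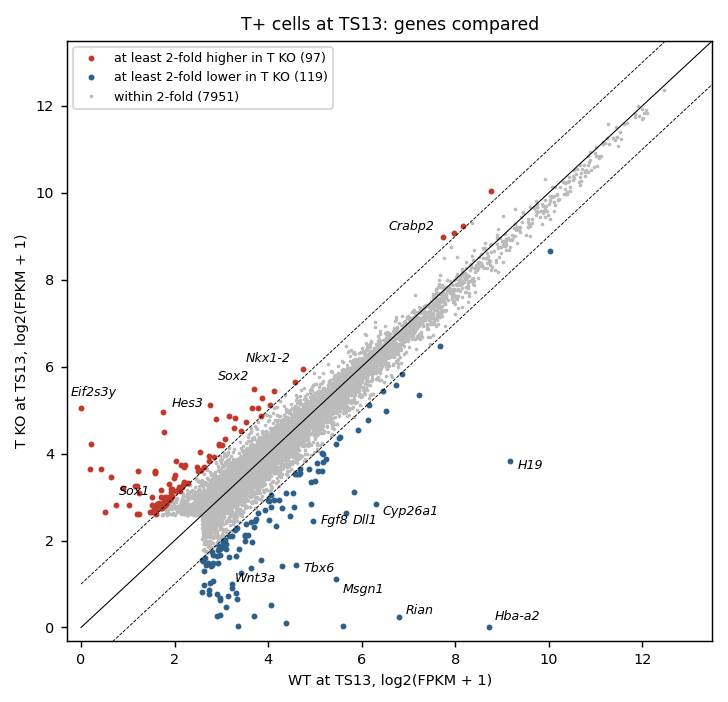
Level of each compared gene in T KO cells (vertical axis) against WT cells (horizontal axis) at TS13, both as log2(FPKM + 1), with the line of equal level and dashed lines at 2-fold. The 97 higher genes in red lie above the upper dashed line and the 119 lower genes in blue below the lower one, with Msgn1, Tbx6, Dll1 and Cyp26a1 far below it.

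Estimated from the steps in the low FPKM values, depth was 31.5 M fragments for the T KO library and 40.1 M for the WT library. A transcript of 1 kb at 5 FPKM then rested on 157 fragments in T KO cells and 200 fragments in WT cells, so that its counting error was 7.97% of the value in T KO cells and 7.06% in WT cells. This covers counting alone, and reads copied by PCR do not stand for separate molecules. The libraries also differed in small RNAs. All symbols of small nucleolar RNAs together summed to 1502 FPKM in T KO cells and 722 FPKM in WT cells. Rn4.5s had 18065 FPKM in T KO cells, against 9698 FPKM in WT cells. The part of these small RNAs in the differences below was not tested. Of the TS12 libraries, the WT one stands apart, with 1066 of 1502 sensory receptor symbols above 0, against 35 in its T KO partner and 39 and 36 in the T KO and WT libraries of TS13.

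Most compared genes of presomitic mesoderm were lower in T KO cells. Of 27 listed genes, 10 were compared, and 8 of these were at least 2-fold lower and 1 higher, with a median of -2.36. Over the whole list with no minimum the median was -0.90. Msgn1, a bHLH factor that drives presomitic differentiation, had 1.18 FPKM in T KO cells and 42.5 FPKM in WT cells (-4.32). Tbx6 differed by -3.16. Next came the Wnt enhancer Rspo3 at 7.66 FPKM in T KO cells and 56.1 FPKM in WT cells (-2.72), and Pcdh19, a protocadherin, at 0.571 FPKM in T KO cells and 9.04 FPKM in WT cells (-2.68). In T KO cells these 4 genes were at a small fraction of their WT level.

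The remaining lower members had smaller differences. Dkk1, a secreted Wnt antagonist, had 0.653 FPKM in T KO cells and 7.81 FPKM in WT cells (-2.41), and the somite homeobox gene Meox1 had 0.892 FPKM in T KO cells and 8.30 FPKM in WT cells (-2.30). The forkhead gene Foxc1 had 4.64 FPKM in T KO cells and 12.4 FPKM in WT cells (-1.25). Cited1, a transcriptional coregulator, was the member with the most RNA left, at 39.5 FPKM in T KO cells against 148 FPKM in WT cells (-1.88). Aldh1a2, the enzyme that makes retinoic acid in somites, differed by -0.96, under the line. The somite markers Tcf15 (0.0341 FPKM in T KO cells, 3.27 FPKM in WT cells), Mesp1 and Mesp2 were below the 5 FPKM minimum in both libraries. Pax3 ran the other way, at 11.97 FPKM in T KO cells and 3.60 FPKM in WT cells (1.49). Pax3 is expressed in dorsal neural tube as well as in presomitic mesoderm. In bulk samples, fewer presomitic cells and less RNA per cell cannot be told apart.

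The promoters of Msgn1 and Tbx6 are shown because these 2 factors had the largest differences of the presomitic list. Both are the 250 bases before the start, on build GRCm38.p6 (mm10), from RefSeq. Capitals mark the core letters CACCT, on either strand, in the Tbx6 promoter at chr7:126781233-126781482 on the plus strand, and none are present in the Msgn1 promoter at chr12:11208949-11209198 on the minus strand.
Msgn1: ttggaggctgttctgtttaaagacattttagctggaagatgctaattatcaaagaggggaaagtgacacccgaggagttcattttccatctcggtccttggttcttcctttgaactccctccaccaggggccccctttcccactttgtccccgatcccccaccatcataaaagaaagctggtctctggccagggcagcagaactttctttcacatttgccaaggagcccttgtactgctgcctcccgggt
Tbx6: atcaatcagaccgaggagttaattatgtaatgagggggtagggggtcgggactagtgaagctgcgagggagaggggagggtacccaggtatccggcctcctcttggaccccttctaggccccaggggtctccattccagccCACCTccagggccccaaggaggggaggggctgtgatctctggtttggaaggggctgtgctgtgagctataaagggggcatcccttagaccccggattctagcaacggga
The longer T-box letters TCACACCT, searched on both strands of 250 bases before to 50 after each start, were found in 4 of 85 lower genes that have a promoter in the RefSeq table (4.71%) and in 0 of 67 higher genes, against 53 of 6278 compared genes (0.844%) and 399 of 27025 genes with a promoter in the table (1.48%). The 4 are Bloc1s2, Cdkn1a, Hoxd9 and Meg3, named after their values were seen. Meg3 is among the imprinted genes given apart below, and the Cdkn1a match lies after the start. With the WT library of TS12 as reference, Cdkn1a (-0.86) and Hoxd9 (-0.58) were within 2-fold. The shorter CACCT stood in 48 of 85 lower genes (56.5%), 33 of 67 higher genes (49.3%) and 3237 of 6278 compared genes (51.6%), and it is part of the longer letters. Positions are counted from the start the promoter table uses, which for Cdkn1a and Meg3 lies inside the gene span. The 2 windows below hold the full letters upstream of the start, with the match in capitals. They lie at chr19:44146515-44146544 on the minus strand for Bloc1s2, a lysosomal complex subunit, and chr2:74697605-74697634 on the plus strand for Hoxd9, listed here with the central Hox genes.
Bloc1s2: gtccttatttgAGGTGTGActtgggcaagc
Hoxd9: gataatcgcctAGGTGTGActtagaagccc
Bloc1s2 had 19.7 FPKM in T KO cells and 45.1 FPKM in WT cells (-1.16), and Hoxd9 had 4.38 FPKM in T KO cells and 11.5 FPKM in WT cells (-1.21). A match of letters is a description and not a binding site.

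Neural progenitor genes lay mostly on the higher side. Of 26 listed genes, 13 were compared, 9 were at least 2-fold higher in T KO cells and 1 lower, and the median difference was 1.53, against 0.36 over the whole list with no minimum. Sox1, a neural plate factor, had 9.98 FPKM in T KO cells and 0.569 FPKM in WT cells (2.81), and its relative Sox3 had 11.0 FPKM in T KO cells and 1.99 FPKM in WT cells (2.00). Sox2 itself differed by 1.78. Other higher genes were the zinc-finger factors Zic2, at 27.3 FPKM in T KO cells and 8.78 FPKM in WT cells (1.53), and Zic5 (2.33). They also included the cadherin Cdh6 (2.39) and the endocytic receptor Lrp2, at 12.3 FPKM in T KO cells and 3.40 FPKM in WT cells (1.60). The lower neural gene was Hes5, a Notch target, at 0.973 FPKM in T KO cells and 5.15 FPKM in WT cells (-1.64). The spinal cord gene Pax6 was under 5 FPKM in both libraries, at 3.53 FPKM in T KO cells and 2.61 FPKM in WT cells. The adhesion molecule Ncam1 (1.06) and the homeobox gene Irx3 (1.18) were just past the line. The intermediate filament Nes (0.29) and the RNA-binding protein Msi1 (0.40) were within 2-fold.

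The list of caudal and axial progenitor genes was split. Among 17 compared, 3 stood above the 2-fold line and 5 below it, and the median was -0.33. Hes3, a bHLH repressor of neural progenitors, had 30.1 FPKM in T KO cells and 2.35 FPKM in WT cells (3.22). Nkx1-2, a homeobox gene of the caudal epiblast, had 60.6 FPKM in T KO cells and 25.9 FPKM in WT cells (1.20), and the Wnt ligand gene Wnt8a had 8.55 FPKM in T KO cells and 1.22 FPKM in WT cells (2.11). On the low side stood the retinoic acid-degrading enzyme Cyp26a1, with 6.12 FPKM in T KO cells and 77.6 FPKM in WT cells (-3.47), and the ligand Wnt3a, with 1.66 FPKM in T KO cells and 18.6 FPKM in WT cells (-2.88). The caudal homeobox gene Cdx2 differed by -0.05, at 65.6 FPKM in T KO cells and 68.0 FPKM in WT cells. Cdx4 had 98.2 FPKM in T KO cells and 151 FPKM in WT cells (-0.62). The 3 compared Cdx genes, which set caudal identity, were all within 2-fold, with Cdx1 at -0.44. With the WT library of TS12 as reference, Wnt8a differed by 0.15 and Nkx1-2 by 0.78, both within 2-fold.

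Of 5 compared FGF ligands, 4 were lower in T KO cells. With the receptors, 7 genes of the list were compared, and those past 2-fold were Fgf8 (4.49 FPKM in T KO cells, 30.1 FPKM in WT cells, -2.50), Fgf3 (-2.52), Fgf15 (-2.29) and Fgf18 (-1.73). The ligand Fgf17 (-0.33) and the receptors Fgfr1 (0.41) and Fgfr2 (0.87) were within 2-fold. Among 10 compared feedback genes of the FGF pathway, Spry4, an inhibitor of the cascade, was the 1 lower gene, at 6.58 FPKM in T KO cells and 16.5 FPKM in WT cells (-1.21), and the list median was -0.42.

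Wnt genes were divided. Of 4 compared Wnt ligands, Wnt3a and Wnt5b (15.0 FPKM in T KO cells, 35.1 FPKM in WT cells, -1.17) were lower, Wnt8a was higher, and Wnt5a (0.51) was within 2-fold. Of 7 secreted antagonists and enhancers, 3 were lower: Rspo3, Dkk1 and Frzb, an antagonist at 5.80 FPKM in T KO cells and 22.3 FPKM in WT cells (-1.78). Of 11 Wnt effectors and targets, 3 were lower: Apcdd1 at 5.76 FPKM in T KO cells and 18.7 FPKM in WT cells (-1.54), the transcription factor Lef1 at 33.8 FPKM in T KO cells and 70.4 FPKM in WT cells (-1.04), and Sp5 (-1.04). Lef1 and Sp5 fell short of 2-fold under upper-quartile scaling (-0.98 and -0.99) and median-of-ratios scaling (-0.99 and -0.999), and Lef1 also with the WT library of TS12 as reference (-0.84). Axin2, the usual readout of the canonical pathway, had 24.8 FPKM in T KO cells and 43.4 FPKM in WT cells (-0.78) and did not reach 2-fold.

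Of 14 compared Notch and segmentation clock genes, 7 were at least 2-fold lower and 0 higher, with a median of -1.07, against -0.30 over the whole list with no minimum. The ligand Dll1 had 5.17 FPKM in T KO cells and 49.5 FPKM in WT cells (-3.03), and Dll3 had 4.89 FPKM in T KO cells and 21.2 FPKM in WT cells (-1.92). The targets Hes7 (3.99 FPKM in T KO cells, 12.03 FPKM in WT cells, -1.39), Nrarp (-1.57), Hey1 (-1.43) and the glycosyltransferase Lfng (-1.16) also lay below the line. The receptors Notch1 (-0.20), Notch2 (0.42) and Notch3 (0.16) and the DNA-binding partner Rbpj (0.09) were within 2-fold. The ligand Jag1 (-0.32) and the target Hes1 (-0.66) were within 2-fold too, so the lower genes are the Delta ligands and a subset of the targets. With the WT library of TS12 as reference, Hey1 (-0.80) and Lfng (-0.62) were within 2-fold.

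**Figure D2:**
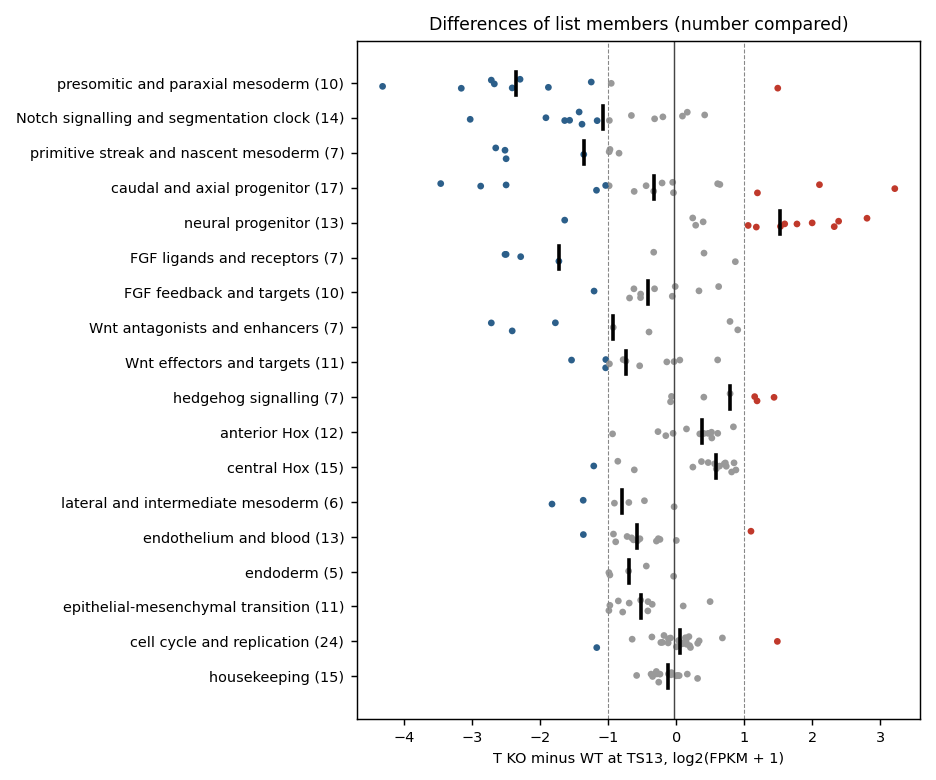
Difference of each list member between T KO and WT cells at TS13 (horizontal axis, log2), one row per list with the number of genes compared, members as points, list medians as thick bars and dashed lines at 2-fold. Presomitic and primitive streak lists sit to the left at medians of -2.36 and -1.36, the neural list to the right at 1.53, and housekeeping genes close to the line of all genes at -0.11.

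Among primitive streak genes, 4 of 7 compared were at least 2-fold lower: Mixl1, a homeobox gene of nascent mesoderm (0.194 FPKM in T KO cells, 6.53 FPKM in WT cells, -2.66), Fgf3, Fgf8 and Amot (-1.36). The median of the 7 was -1.36, against -0.79 over the whole list with no minimum. The notochord genes Noto (listed at 0 in T KO cells, 3.10 FPKM in WT cells) and Shh (0.321 FPKM in T KO cells, 1.67 FPKM in WT cells) did not reach 5 FPKM in either library. Of 7 compared hedgehog pathway genes, 3 passed 2-fold, each on the higher side: the coreceptors Boc, at 9.77 FPKM in T KO cells and 2.97 FPKM in WT cells (1.44), and Cdon (1.15), and the effector Gli2 (1.19).

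Hox genes were mostly within 2-fold, and the position groups, as drawn for the lists used here with Hoxd9 in the central one, differed in sign. Of 12 compared anterior Hox genes, 8 were above 0 with a median of 0.38, and of 15 central ones, 12 were above 0 with a median of 0.59. The 2 compared posterior genes were below 0: Hoxa10 had 5.79 FPKM in T KO cells and 10.6 FPKM in WT cells (-0.78), and Hoxc10 differed by -0.89. Of all these, Hoxd9 was the 1 gene past 2-fold (-1.21), and it differed by -0.58 with the WT library of TS12 as reference. Hoxc6 had 57.3 FPKM in T KO cells and 30.7 FPKM in WT cells (0.88). Retinoic acid genes held 1 higher gene, the binding protein Crabp2, at 506 FPKM in T KO cells and 213 FPKM in WT cells (1.25), beside Cyp26a1.

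The remaining signalling, adhesion and matrix lists held few genes past the line. Of 12 compared BMP pathway genes, the homeobox target Msx2 was the 1 lower gene, at 6.59 FPKM in T KO cells and 14.9 FPKM in WT cells (-1.06). The targets Id1 (-0.75), Id3 (-0.83) and Msx1 (-0.83) were within 2-fold. Of the 12, 5 were above 0 and 7 below, with a median of -0.17. Of 3 compared Nodal pathway genes, 0 passed in either direction. Of 10 compared ephrins and Eph receptors, the ligand Efna1 was the 1 lower gene, at 11.4 FPKM in T KO cells and 24.6 FPKM in WT cells (-1.04), which was -0.99 under upper-quartile scaling and so within 2-fold. No gene of 11 compared in epithelial-mesenchymal transition or 18 in matrix and integrins passed, and their medians were -0.52 and -0.26, against -0.04 over all genes.

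Markers of other cell types a sort could hold were measured beside these groups, and their part in the results was not tested. The endothelium and blood list had 13 of 25 genes compared, with 1 higher, Hba-a1, and 1 lower. Of the 13, 2 were above 0 and 11 were below 0 with a median of -0.57. That median was 0.40 with the WT library of TS12 as reference. Its summed level, carried by globins, was 2411 FPKM in T KO cells and 2704 FPKM in WT cells. The list holds Hba-a1 but not its near-identical copy Hba-a2, which was listed at 0 in T KO cells and 424 FPKM in WT cells. Summed, the pair differed by -0.33, so the Hba-a1 call and the summed level rest on an uncertain split. Lmo2, a blood and endothelial regulator, was the lower gene at 12.9 FPKM in T KO cells and 34.9 FPKM in WT cells (-1.37). The lateral and intermediate mesoderm list had 6 of 18 genes compared with 2 lower, and its summed level was 59.2 FPKM in T KO cells and 117 FPKM in WT cells. Its lower genes were Osr1, at 4.06 FPKM in T KO cells and 17.0 FPKM in WT cells (-1.83), and Foxf1 (-1.37). The endoderm list had 5 of 16 compared, none past 2-fold, and summed to 86.2 FPKM in T KO cells and 138 FPKM in WT cells. Of 20 epiblast, pluripotency and germ cell genes, 6 were compared, 2 were at least 2-fold lower and 2 were above 0. The lower genes were the germ cell gene Dppa3, at 1.01 FPKM in T KO cells and 8.39 FPKM in WT cells (-2.22), and the pluripotency factor Pou5f1, at 1.40 FPKM in T KO cells and 9.72 FPKM in WT cells (-2.16). Under 1 FPKM were 7 of 18 lateral mesoderm markers in T KO cells and 6 in WT cells, 4 of 25 endothelium and blood markers in T KO cells and 1 in WT cells, and 8 of 16 endoderm markers in T KO cells and 6 in WT cells. Within the neural crest and surface ectoderm lists, Grhl3 (1.19) and Pax3 were the genes past 2-fold.

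Genes of sex chromosomes, imprinted genes and near-identical copies supply several of the largest differences, and they are given apart. The Y-linked genes Eif2s3y (32.1 FPKM in T KO cells, listed at 0 in WT cells), Ddx3y (11.5 FPKM in T KO cells, 0.151 FPKM in WT cells, 3.44) and Uty (3.22) were higher in T KO cells, and Xist had 0.207 FPKM in T KO cells and 0.0163 FPKM in WT cells. Y-linked expression therefore moves with genotype and cannot be told apart from it. Of 23 compared imprinted genes, 2 were higher and 6 lower. H19 had 13.1 FPKM in T KO cells and 578 FPKM in WT cells (-5.36), and the maternally expressed genes of chromosome 12, Rian (0.177 FPKM in T KO cells, 110 FPKM in WT cells, -6.56), Meg3 (-4.28) and Mirg (-3.44), were at or near 0 in T KO cells. At TS12 the difference of Rian was -6.48 and that of H19 was -5.24. The imprinted genes Rtl1 (-2.69) and Phlda2 (-1.37) were lower too, and Plagl1 (22.0 FPKM in T KO cells, 9.75 FPKM in WT cells) and Snrpn were higher.

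For near-identical copies and overlapping genes, the split of fragments between the genes is uncertain. Hba-a2 was listed at 0 in T KO cells and 424 FPKM in WT cells, while its copy Hba-a1 had 535 FPKM in T KO cells and 249 FPKM in WT cells. Summed, the pair gave 535 FPKM in T KO cells and 673 FPKM in WT cells (-0.33). Amd1 (0.0195 FPKM in T KO cells, 47.7 FPKM in WT cells) and Amd2 summed to 92.1 FPKM in T KO cells and 115 FPKM in WT cells (-0.32), and Snrpn (17.7 FPKM in T KO cells, 0.154 FPKM in WT cells) with its overlapping gene Snurf to 35.2 FPKM in T KO cells and 42.9 FPKM in WT cells (-0.28). The apparent large differences of Hba-a2, Amd1 and Snrpn are thus within 2-fold when each is summed with its copy or overlapping gene. Leaving out Y-linked genes, Xist, imprinted genes and genes with a copy or overlap, 90 genes were higher and 107 lower. X-linked genes other than Xist were not left out as such, and on chromosome X 4 compared genes were higher and 6 lower.

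**Figure D3:**
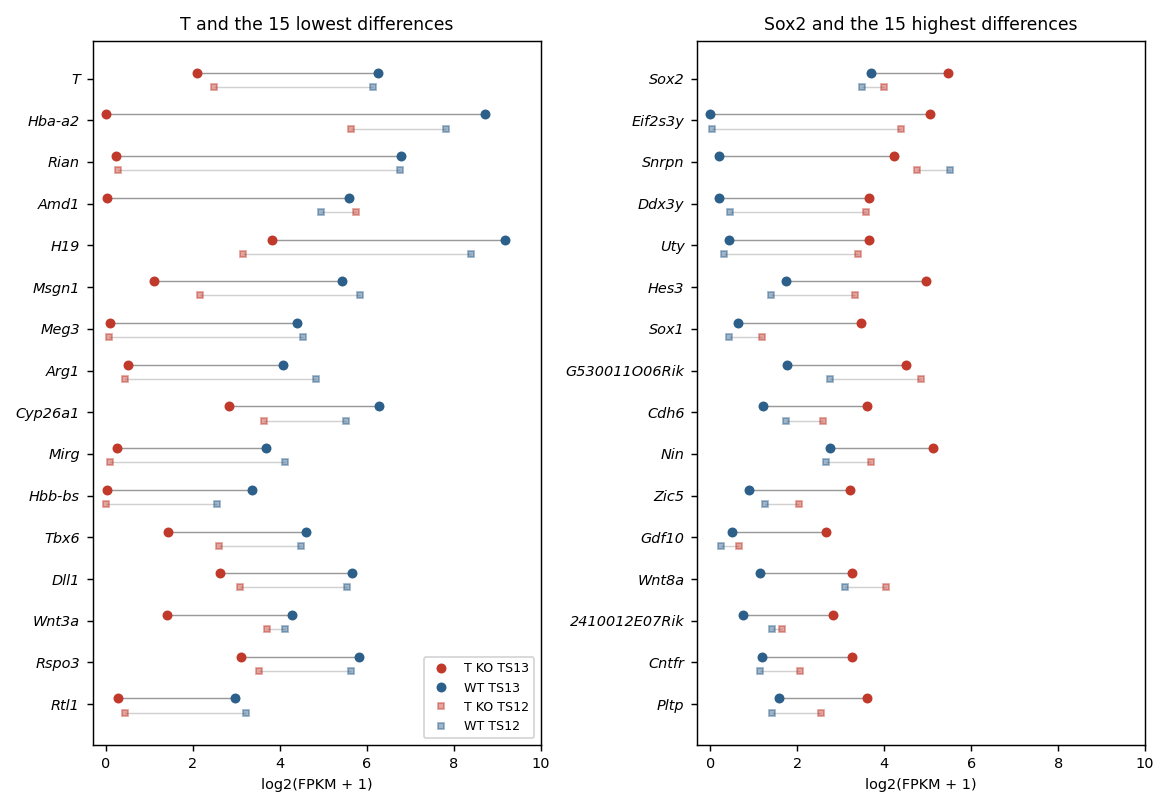
Levels in log2(FPKM + 1) of T and the 15 genes with the lowest differences (left) and of Sox2 and the 15 with the highest (right), T KO in red and WT in blue, TS13 as circles and TS12 as pale squares. T KO and WT circles lie far apart for all of them, while at TS12 the Wnt3a squares are close together and those of Snrpn and Amd1 lie in the opposite order.

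The remaining genes at the top of the ranking are Nin, a centrosomal protein (33.6 FPKM in T KO cells, 5.73 FPKM in WT cells, 2.36), Gdf10, a BMP-related ligand (2.16), the uncharacterised transcripts G530011O06Rik (2.72) and 2410012E07Rik (2.07), the CNTF receptor Cntfr (2.06) and the phospholipid transfer protein Pltp (2.01). At the bottom stand Arg1, the urea-cycle arginase (0.430 FPKM in T KO cells, 15.8 FPKM in WT cells, -3.56), and the globin Hbb-bs, another gene with a copy (-3.33). Of 8 compared metallothionein and polyamine genes, 2 were higher and 1 lower. Of 11 semaphorins and receptors, 1 was higher and 2 lower. Of 13 apoptosis genes and p53 targets, 2 were higher, and of 4 immediate early and heat shock genes, 1 was higher. The metallothioneins Mt1 (32.2 FPKM in T KO cells, 12.7 FPKM in WT cells, 1.27) and Mt2 were higher, the semaphorin Sema3a was higher (1.40), and its receptors Nrp1 (-1.10) and Plxna2 (-1.78) were lower. The apoptosis genes Bmf (1.52) and Pmaip1 (1.21) and the immediate early gene Jun (1.19) were higher. The cell cycle list had 1 higher gene, the phosphatase Cdc25b (1.49), and 1 lower gene, the inhibitor Cdkn1a (-1.17), of 24 compared. With the WT library of TS12 as reference, Cdkn1a (-0.86), Nrp1 (-0.998) and Pmaip1 (0.999) were within 2-fold. No gene of 19 compared in glycolysis or 15 housekeeping genes differed by 2-fold.

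At TS12 the same genotype pair was measured in separate libraries. There too Y-linked genes and Xist moved with the genotype label, summing to 42.1 FPKM in T KO cells and 0.930 FPKM in WT cells. Genotype and Y-linked expression thus cannot be told apart at either stage. Of the 119 genes lower at TS13, 44 (37.0%) were also at least 2-fold lower at TS12 and 97 were below 0, against 0.845% of all compared genes at least 2-fold lower. Of the 97 higher genes, 24 (24.7%) were also at least 2-fold higher and 80 were above 0, against 0.857% of all compared genes. Without Y-linked genes, Xist, imprinted genes and genes with a copy or overlap, 37 lower and 20 higher genes passed at both stages. Genes that differed at both stages include Msgn1 (-3.69 at TS12), Dll1 (-2.47), Rspo3 (-2.12), Arg1 (-4.39), Fgf3 (-2.03), Hes3 (1.95) and Sox3 (1.22). The presomitic list had a median of -2.36 at TS13 and -1.91 at TS12.

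Other differences were larger at TS13. Wnt3a had 12.05 FPKM in T KO cells and 16.3 FPKM in WT cells at TS12 (-0.41), and Fgf8 had 17.2 FPKM in T KO cells and 25.1 FPKM in WT cells (-0.52), both far smaller than at TS13. Sox2 differed by 0.50 and Sox1 by 0.77 at TS12. The medians of the neural list were 1.53 at TS13 and 0.55 at TS12, and those of the FGF ligands and receptors -1.73 and -0.52. With no minimum, the TS13 medians were 0.36 for the neural list and -0.83 for the FGF list. With a minimum of 20 FPKM, the FGF median at TS13 was -0.33. In all, 74 of the genes lower at TS13 and 72 of the genes higher at TS13 were within 2-fold at TS12. The genes and list members were chosen by their TS13 values, which by itself favours larger differences at TS13. The difference between the stages was not tested, since each stage has 1 library per genotype and the WT library of TS12 stands apart.

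**Figure D4:**
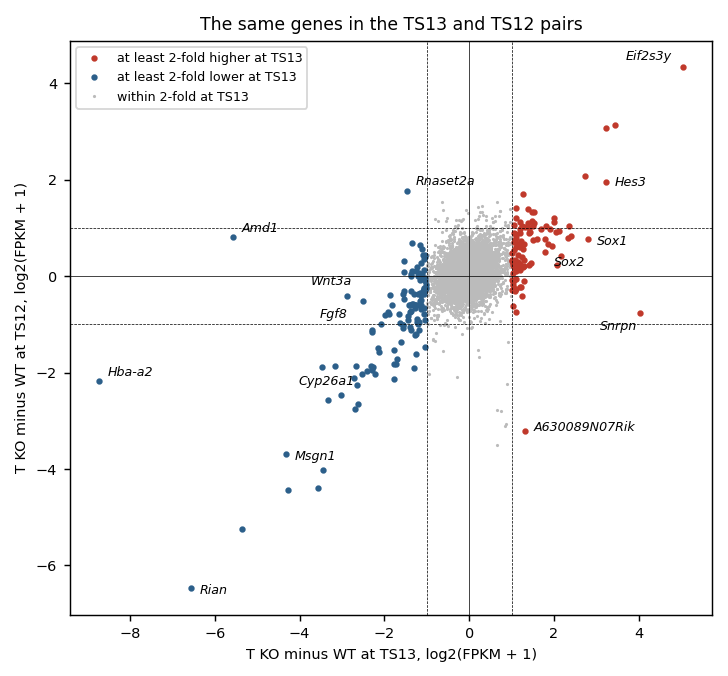
Difference of each gene between T KO and WT cells at TS13 (horizontal axis) and TS12 (vertical axis), both log2, with genes at least 2-fold higher at TS13 in red and lower in blue. Msgn1 and Rian are low at both stages, Wnt3a and Fgf8 low mainly at TS13, and Rnaset2a and A630089N07Rik point in opposite directions.

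The genes were then set beside sorted fractions of WT cells at TS12. The T+ and Sox2+ fractions are separated by Sox2 (2.82 FPKM in T+, 50.5 FPKM in Sox2+) but not by T itself, which had 141 FPKM in T+ and 192 FPKM in Sox2+. Of the 119 lower genes, 44 (37.0%) had a T+ level at least 2-fold above that of Sox2+ cells, against 2.51% of all compared genes, and 8 one at least 2-fold below. Of the 97 higher genes, 47 (48.5%) had a T+ level at least 2-fold below that of Sox2+ cells, against 2.57% of all. Another 5 (5.15%) had one at least 2-fold above, against 2.51% of all. Both sets were chosen partly by their level in WT T+ cells at TS13. The direction of these counts, and of those that follow, is partly set by that choice. In the T+ Sox2+ fraction against Sox2+, which shares the Sox2+ library, 47 of the genes lower in T KO cells (39.5%, against 1.21% of all) stood above 2-fold and 33 of the higher ones (34.02%, against 1.05% of all) stood below it. Hes3, for example, had 0.208 FPKM in T+, 5.24 FPKM in T+ Sox2+ and 45.7 FPKM in Sox2+. Meox1 ran the opposite way, with 28.6 FPKM in T+, 12.5 FPKM in T+ Sox2+ and 0.555 FPKM in Sox2+.

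**Figure D5:**
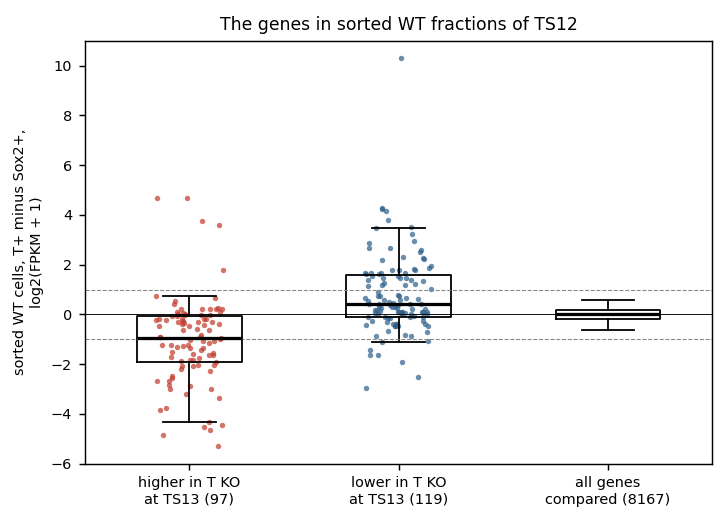
Difference between sorted WT T+ and Sox2+ cells of TS12 (vertical axis, log2 of FPKM + 1) for the genes higher in T KO cells at TS13, those lower, and all genes compared, as points with boxes (median, quartiles, whiskers at the 5th and 95th percentile). The median of the higher genes is -0.94, that of the lower genes 0.43, and that of all genes near 0. Both sets were chosen partly by their level in WT T+ cells at TS13, which partly sets these directions.

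In 53 single WT cells sorted as T+ Sox2+ at TS13, the median lower gene was present at 1 FPKM or more in 49.1% of cells, the median higher gene in 22.6% and the median compared gene in 67.9%. Genes higher in T KO cells were chosen for a low level in WT cells at TS13, so their low share in these cells is set by the choice and is not a result. Genes lower in T KO cells all had at least 5 FPKM in WT cells at TS13. Their presence in the single cells is thus favoured by the choice too and is not a result. The lower genes Dll1, Fgf8 and Rspo3 were present in all 53 cells and Msgn1 in 15. The higher genes Sox1 and Zic5 were present in 5 cells and 1 cell, which falls under the choice of higher genes. These genes are examples and do not stand for either set. The Tbx6+ pair, titled Tbx6 KO and titled WT, is of Theiler stage 14 and not of TS13. In that pair, 28 of 119 lower genes (23.5%) were at least 2-fold lower, against 1.4% of all, and 18 were at least 2-fold higher, against 1.89% of all. Of the 97 higher genes, 22 (22.7%) were at least 2-fold higher, against 1.89% of all, and 3 (3.09%) at least 2-fold lower, against 1.4% of all. The titles and source names of that pair contradict each other on genotype, so no direction is drawn from it beyond its titles. Around T on chromosome 17, 49 genes were compared within 10 Mb of chr17:8434423-8442496, and 0 were higher and 2 lower, against 1.46% lower over all genes. They are Dll1 and Rnaset2a, and Rnaset2a differed by -0.52 when summed with its copy Rnaset2b.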

How the data were processed

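RNA from sorted T+ cells was measured per the labels' protocols by strand-specific RNA-seq (ScriptSeq v2) after ribosomal RNA depletion. The tools named, per the submitters' processing notes, are Cufflinks 2.2.1, Cuffdiff, TopHat2 2.1.0, Bowtie 1.1.2, Picard 1.103, bedtools 2.23.0 and SAMtools. The build named is mm10. Neither the role of each tool nor the scaling is stated in those sources. The authors deposited 1 FPKM value per gene symbol, which is not a count, so no count model was used. The deposited tables were taken as normalised separately and differences were made within 1 table. Differences were of log2(FPKM + 1), with a minimum of 5 FPKM in 1 of the 2 libraries, computed in Python 3.11.15 with pandas 2.3.3 and tested on simulated data. Depth was estimated from low genes whose FPKM times length lay within a relative 0.0003 of whole fragments (120 of 392 in T KO cells, 122 of 446 in WT cells; 10 and 8 with lengths shuffled). Named genes are T, Sox2 and Tbx6, the 15 highest and 15 lowest, list members past 2-fold, and genes at the line; list members within 2-fold and genes taken as examples in the other libraries were chosen after their values were seen. The members and lists were chosen with earlier results of these data known. One gene that the rule names is not reported here. Alternatives were other pseudocounts, minimums, scalings, references and gene sets.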

Additional observations from a re-analysis of the deposited data

Results flagged for a closer look

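A630089N07Rik, an uncharacterised transcript, differed in opposite directions at the 2 stages: T KO minus WT was 1.32 at TS13 (42.7 FPKM in T KO cells, 16.5 FPKM in WT cells) and -3.22 at TS12 (22.5 FPKM in T KO cells, 218 FPKM in WT cells). Rnaset2a, a ribonuclease gene, differed by -1.46 at TS13 (11.2 FPKM in T KO cells, 32.6 FPKM in WT cells) and by 1.78 at TS12 (22.6 FPKM in T KO cells, 5.89 FPKM in WT cells). Summed with its near-identical copy Rnaset2b it differed by -0.52 at TS13 and -0.07 at TS12. The WT library of TS12 is the one that stands apart in sensory receptor symbols, and its part in these values was not tested. Neither difference between the stages was tested.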

How the results depend on the processing

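With 1 library per genotype no library could be left out. The TS13 comparison alone gives no test. A fit of genotype over the T+ libraries of both stages, with stage as a term, was not run here. The counts of higher and lower genes depended most on the pseudocount and the minimum: with a pseudocount of 5 FPKM there were 33 higher and 56 lower genes, with a minimum of 1 FPKM or none 196 and 227, and with a minimum of 20 FPKM 23 and 42. With the WT library of TS12 in place of that of TS13, 181 genes were higher, and Snrpn turned to -1.29, the 1 of 87 named genes that changed sign under any of 11 alternatives. Under upper-quartile scaling the counts were 115 and 109. Scalings moved the median of all genes to at most 0.01, from -0.04. Leaving out genes with a copy or overlap, an alternative chosen after seeing the data, gave 94 and 113. Of 34 list medians, 9 changed sign under at least 1 alternative: Nodal and activin (0.03) to -0.58 with a minimum of 1 FPKM, hedgehog (0.79) to -0.07 with a minimum of 20 FPKM, endothelium and blood (-0.57) to 0.40 with the WT library of TS12, and the Wnt ligands, retinoic acid, imprinted, neural crest, immediate early and p53 lists. With a pseudocount of 5 FPKM, 28 of the named genes were no longer past 2-fold. Depth limits the low genes, since those under 1 FPKM in 1 library rest on few fragments.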
